A study of Mus musculus with 6 samples.

Results

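The genes of programmed cell death followed here were those of the BCL2 family, the caspases, the inhibitor of apoptosis proteins (IAPs) and the death receptor pathway. A set of 37 mouse gene symbols was listed, and a gene was measured where a probe set carried that symbol and no other in the platform annotation. This held for 36 members among 19938 genes measured in the same way. Ripk1 was not analysed here. Probe sets of the Bcl2a1 genes, most of them shared by near-identical copies, are described apart.

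Apoptosis can be started inside the cell, where BCL2 proteins decide whether the mitochondrial outer membrane is opened. Guardians such as BCL2 and MCL1 hold the pore-forming proteins BAK and BAX in check, and BH3-only proteins relieve that hold. Cytochrome c then assembles APAF1 and caspase-9 into the apoptosome, while death receptors such as FAS act through FADD and caspase-8. IAPs restrain caspases and also shape NF-kappaB signalling, and a separate branch of inflammatory caspases, activated in inflammasomes, serves cytokine release and pyroptosis.

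RNA came from subcutaneous tumours grown from glioma cells that a mutant EGFR drives, implanted in the flanks of Nu/Nu mice, with 1 array per tumour. There were 3 control gliomas, numbered 1, 2 and 4, and 3 gliomas that had relapsed after the mutant receptor was extinguished, numbered 1, 2 and 3. Doxycycline was given to some of the mice in their drinking water (2 g/L), but which of the groups it went to is not stated, and tumours were taken at 2 cm3. The age of the mice, the form of the receptor and the number of glioma cell clones are likewise not stated in the labels. Nu/Nu hosts lack a thymus and so most mature T cells, but keep macrophages, natural killer cells, fibroblasts and vessels, and the array reads tumour and host transcripts together. In such bulk tissue, more cells of a type and more RNA per cell cannot be told apart. The labels do not say that the tumours came from separate animals, so p-values measure only the spread between these samples. Levels are log2 intensities as deposited, differences are relapsed minus control on that scale, errors of levels are standard deviations (SD, n = 3) and errors of differences are standard errors (SE) from limma. A gene was called, and is said to have risen or fallen, at a Benjamini-Hochberg adjusted p under 0.05 over all 19938 genes.

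Arrays of a group correlated at r of 0.982 to 0.994 over genes, and arrays of different groups at 0.962 to 0.979. Of lineage genes of the glioma, among them Olig2 and Sox2, 15 were measured. All 15 were above the median of unlisted probe sets (5.66) on at least some arrays. Of these 7 fell and none rose, where 5.47% of all genes fell. With 1 array left out, 1 to 4 of the lineage genes fell and none rose. The mean level of the 15 was 9.97 to 10.52 in control and 8.93 to 9.07 in relapsed tumours. Some arrays carried markers of surrounding tissue, with a skeletal muscle score of 1.65 in control 2, an adipocyte score of 2.48 in relapsed 1 and a keratinocyte score of 1.28 in relapsed 3. A list score averages its genes after each has been centred on 0 across the 6 arrays. Arrays whose removal ended a call are named beside the results for members, and calls in other gene lists are given with their range over the 6 removals. Over all genes 735 rose and 1091 fell, or 696 and 1687 with each array centred on its median.

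The inflammatory caspases were the members that differed most between the groups. Casp1, Casp4 and Casp12 each rose 3.72-fold to 3.85-fold in relapsed tumours, and Birc3, which encodes the IAP cIAP2, rose 2.12-fold. Bcl2l13, a BCL2 relative of the mitochondrial outer membrane that also acts as a mitophagy receptor, was the member that fell. The guardians, pore formers and BH3-only genes of the BCL2 family and the initiator caspases were not called in either direction, apart from the Bcl2a1 probe sets, which rose and are described below. Of the 36 members 5 were called in limma, or 13.9%, against 9.16% of all genes. In the separate directions 4 members rose and 1 fell, against 3.69% and 5.47% of all genes.

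**Figure D1:**
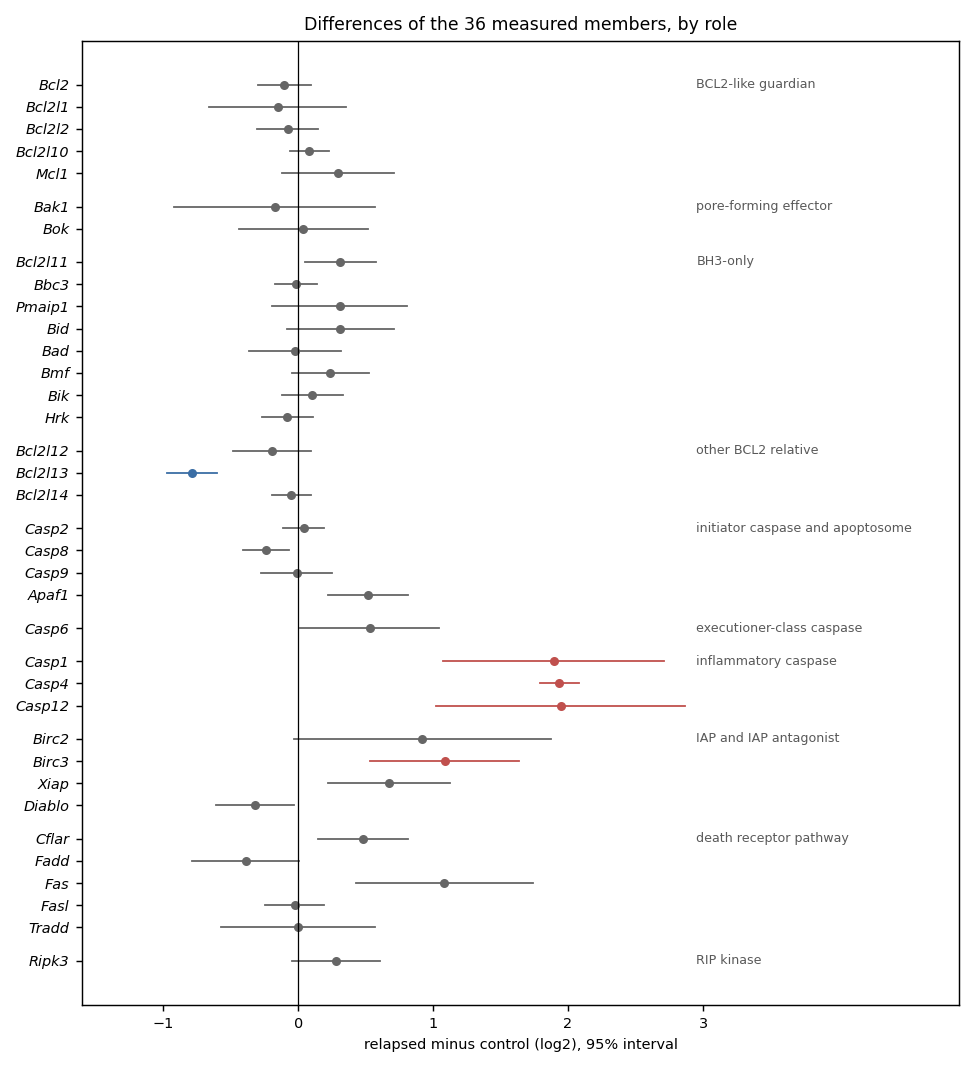
Difference of each of the 36 measured members between relapsed and control gliomas (log2, horizontal axis) with its 95% interval from limma, grouped by role. Red marks the 4 members that rose, blue the 1 that fell and grey the 31 that were not called. The inflammatory caspases lie at 1.89 to 1.94, and all 18 intervals of the BCL2 family stay between -1 and 1.

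The starts of the called genes are shown because these genes carried the differences. Of the Bcl2a1 copies, Bcl2a1c is shown because it has a probe set of its own, and Bcl2a1a as 1 of those whose probe sets are all shared. The windows run from 250 bases before to 50 bases after a gene's start, read from RefSeq on GRCm38.p6, for 33 of the 37 members and all 4 Bcl2a1 genes. They lie at chr9:5298267-5298566 (plus strand) for Casp1, chr9:5308599-5308898 (plus strand) for Casp4, chr9:5345226-5345525 (plus strand) for Casp12, chr9:7873121-7873420 (minus strand) for Birc3 and chr6:120835980-120836279 (plus strand) for Bcl2l13. Those of Bcl2a1a and Bcl2a1c lie at chr9:88956670-88956969 (plus strand) and chr9:114329885-114330184 (plus strand). Capitals mark matches on either strand to 3 motifs that were picked after the sequences were seen, namely GGGNNTTTC (NF-kappaB type), GAGGAAGT (PU.1 type) and TTCNNNGAA (STAT type), and no marked matches overlap.
Casp1: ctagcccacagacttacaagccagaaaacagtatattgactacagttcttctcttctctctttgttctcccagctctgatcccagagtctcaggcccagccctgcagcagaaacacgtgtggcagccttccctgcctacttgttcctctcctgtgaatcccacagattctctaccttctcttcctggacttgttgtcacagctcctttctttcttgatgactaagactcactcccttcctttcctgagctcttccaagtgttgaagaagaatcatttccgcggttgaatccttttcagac
Casp4: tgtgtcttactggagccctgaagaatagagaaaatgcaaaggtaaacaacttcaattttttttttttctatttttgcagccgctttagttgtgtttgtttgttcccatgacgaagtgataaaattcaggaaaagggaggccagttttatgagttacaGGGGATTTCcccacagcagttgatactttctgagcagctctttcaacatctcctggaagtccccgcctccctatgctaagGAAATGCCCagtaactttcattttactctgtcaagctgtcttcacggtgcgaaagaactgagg
Casp12: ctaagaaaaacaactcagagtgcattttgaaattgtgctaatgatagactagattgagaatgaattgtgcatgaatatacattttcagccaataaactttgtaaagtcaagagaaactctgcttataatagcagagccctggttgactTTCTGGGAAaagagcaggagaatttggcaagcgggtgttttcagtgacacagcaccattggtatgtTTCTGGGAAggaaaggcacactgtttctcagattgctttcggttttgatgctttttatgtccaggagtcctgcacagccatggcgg
Birc3: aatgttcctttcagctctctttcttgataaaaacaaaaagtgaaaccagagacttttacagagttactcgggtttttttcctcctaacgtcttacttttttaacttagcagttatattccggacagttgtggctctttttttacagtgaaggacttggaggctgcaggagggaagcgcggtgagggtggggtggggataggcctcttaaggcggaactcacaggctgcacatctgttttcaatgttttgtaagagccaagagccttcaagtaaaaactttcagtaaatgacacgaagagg
Bcl2l13: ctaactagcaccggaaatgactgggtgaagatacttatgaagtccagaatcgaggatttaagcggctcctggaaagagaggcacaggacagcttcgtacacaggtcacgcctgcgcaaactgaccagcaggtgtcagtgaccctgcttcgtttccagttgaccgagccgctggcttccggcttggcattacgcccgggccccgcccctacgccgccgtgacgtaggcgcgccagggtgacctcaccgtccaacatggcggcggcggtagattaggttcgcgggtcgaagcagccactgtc
Bcl2a1a: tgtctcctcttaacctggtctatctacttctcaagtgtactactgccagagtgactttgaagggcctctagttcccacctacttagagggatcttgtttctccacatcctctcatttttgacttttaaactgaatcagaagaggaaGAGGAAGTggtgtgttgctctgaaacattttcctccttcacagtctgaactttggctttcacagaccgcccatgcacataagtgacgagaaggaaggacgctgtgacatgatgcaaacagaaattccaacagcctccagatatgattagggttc
Bcl2a1c: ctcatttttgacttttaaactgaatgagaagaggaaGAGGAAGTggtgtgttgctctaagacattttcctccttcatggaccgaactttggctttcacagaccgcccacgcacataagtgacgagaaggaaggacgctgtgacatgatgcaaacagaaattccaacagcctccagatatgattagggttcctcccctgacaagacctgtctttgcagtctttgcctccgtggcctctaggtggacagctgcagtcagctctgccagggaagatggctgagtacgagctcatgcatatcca
The Casp4 window holds GGGNNTTTC at 2 places, starting 93 and 13 bases before the gene's start, and 4.36% of 32851 windows of the same length hold this motif. It was first searched with a further C at its end, which 1.63% of windows hold. Among members that were not called, windows of Bbc3, Bcl2l1 and Mcl1 also hold it. The Casp12 window holds TTCNNNGAA at 2 places, the nearer starting 36 bases before the start, against 8.30% of windows with the motif, and a window of the uncalled Fas holds it too. Both Bcl2a1 windows hold GAGGAAGT, as do 3.20% of all windows and those of the uncalled Bad, Bak1 and Bcl2l14. The windows of Casp1, Birc3 and Bcl2l13 hold none of these letters. These matches describe the sequence only.

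Casp4, the mouse caspase (caspase-11) that senses cytosolic lipopolysaccharide, had the smallest p of all members. Its level was 7.07, 7.15 and 7.01 in control 1, 2 and 4 and 8.99, 9.03 and 9.01 in relapsed 1, 2 and 3. The groups were far apart and the arrays of each nearly equal. The difference was 1.94 ± 0.06 (3.82-fold, adjusted p = 0.00127 in limma). It stayed called with any 1 array left out, with an adjusted p of 0.00705 to 0.0234.

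Casp1, the caspase that matures interleukin-1 beta and interleukin-18, stood at 8.37, 7.86 and 9.10 in control 1, 2 and 4. In relapsed 1, 2 and 3 it stood at 10.34, 10.12 and 10.56. Controls spread widely, with control 4 the highest, but no control reached a relapsed tumour. The difference was 1.89 ± 0.33 (3.72-fold, adjusted p = 0.0304 in limma). Without control 1, control 2, relapsed 1, relapsed 2 or relapsed 3 the call was lost, with an adjusted p of up to 0.103.

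Casp12, an inflammatory-class caspase linked to the endoplasmic reticulum, followed a like order. Its level was 8.78, 8.57 and 9.75 in the controls and 10.89, 10.64 and 11.41 in the relapsed tumours, again with control 4 and relapsed 3 the highest of their groups. The difference was 1.94 ± 0.37 (3.85-fold, adjusted p = 0.0372 in limma). The call was lost without control 1, control 2 or any single relapsed array, with an adjusted p of up to 0.119.

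**Figure D2:**
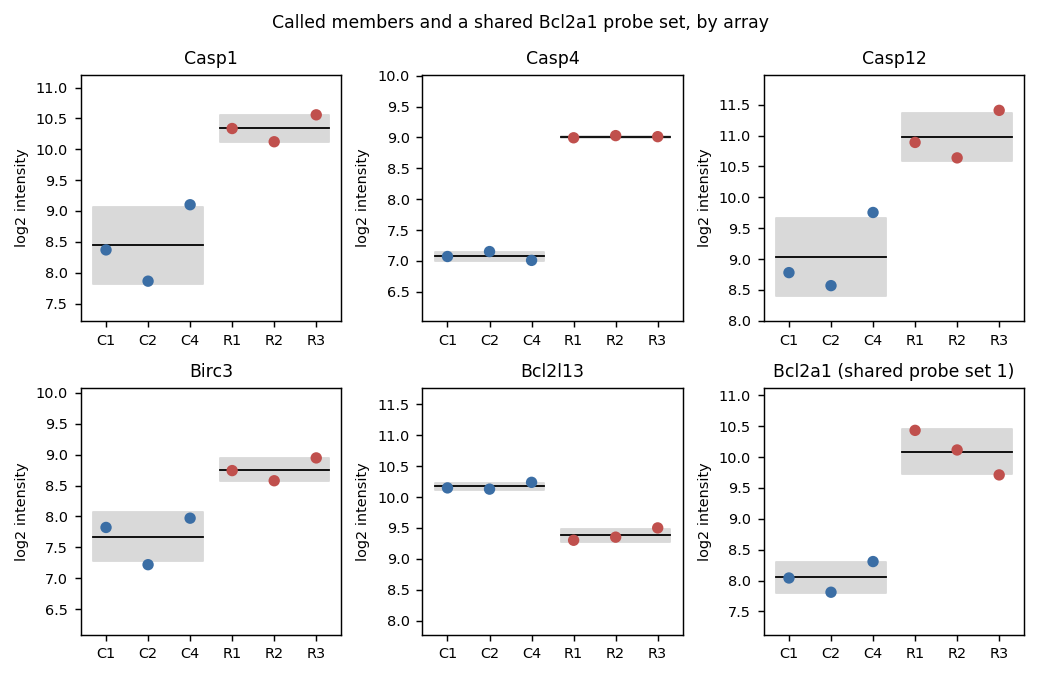
Log2 intensity of the 5 called members and of a shared Bcl2a1 probe set on each array, with C1, C2 and C4 the controls and R1 to R3 the relapsed tumours. Lines are group means, grey bands are 1 SD on each side, and every panel spans 4 log2 units. Casp4 sits at 7.01 to 7.15 in controls and 8.99 to 9.03 in relapsed tumours, while Casp1 and Casp12 spread more.

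Genes that act with these caspases were higher too. Of 19 measured inflammasome genes 8 rose and none fell, where 3.69% of all genes rose. An unadjusted p under 0.05 in limma was reached by 14 of them and by 26.6% of all genes, and their median difference was 0.70, against -0.019 over all genes. With any 1 array left out, 0 to 3 inflammasome genes were called. Those with the largest differences were Naip5 (1.45 ± 0.21) and Naip2 (1.30 ± 0.22), sensors of bacterial flagellin and secretion systems, Aim2 (1.41 ± 0.28), the sensor of cytosolic DNA, and Txnip (1.26 ± 0.17), a thioredoxin-binding protein that can bind NLRP3. Naip2 and Naip5 are close paralogs, so their signals may be shared, and without them 6 of 17 genes rose.

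Pycard encodes the adaptor ASC, which joins sensors to caspase-1. It stood at 6.71, 6.89 and 7.08 in control 1, 2 and 4 and at 8.05, 8.02 and 7.74 in relapsed 1, 2 and 3. The groups did not overlap, and the difference was 1.05 ± 0.13 (adjusted p = 0.0170 in limma, and 0.0447 to 0.0603 with 1 array left out). Gsdmd, the pore-forming protein that these caspases cut in pyroptosis, rose by 0.89 ± 0.17 (0.78 to 1.03 with 1 array left out, called in none of those fits). The cytokine genes Il1b, Il1a and Il18 were not called, at 1.20 ± 0.52, 0.62 ± 0.29 and 0.20 ± 0.22, and Gsdme, another gasdermin, was at -0.38 ± 0.11.

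Markers of macrophages and fibroblasts were higher in the same tumours. Of 18 macrophage markers 12 rose and none fell, where 3.69% of all genes rose. The mean level of the 18 was 9.0 to 9.39 in control and 10.34 to 10.86 in relapsed tumours. Of 14 fibroblast markers 10 rose and none fell, against the same 3.69%. The mean level of the 14 was 9.18 to 9.74 in control and 10.51 to 11.17 in relapsed tumours. With 1 array left out, 3 to 7 macrophage and 1 to 5 fibroblast markers were called. No marker of either list lay below 5.66 on all arrays, and Cd163, a marker of resident macrophages, differed by 0.10 ± 0.37. Of the fibroblast markers, Fbln1 and Thy1 differed by -0.49 and -0.05. The part of these cells in the rises of caspases, inflammasome genes, Birc3 and Bcl2a1 was not tested. The macrophage score was 0.99, 0.48 and 0.47 in relapsed 1, 2 and 3 and the inflammasome score 0.50, 0.32 and 0.26. In control 1, 2 and 4 the macrophage score was -0.87, -0.48 and -0.61 and the inflammasome score -0.32, -0.53 and -0.23. Control 2 was thus the highest control for macrophage and the lowest for inflammasome genes. Of 14 endothelial markers 12 had a lower mean in relapsed tumours, with a median difference of -0.31. The 1 called was Robo4, which fell by 0.58 ± 0.12, where 5.47% of all genes fell. Robo4 was not called with any 1 array left out.

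Neutrophil and lymphoid markers gave no calls with all 6 arrays. Of all genes 9.16% were called and 26.6% had an unadjusted p under 0.05 in limma. With 1 array left out, 0 to 1 neutrophil markers rose and none fell, and no natural killer or T cell marker was called. None of 13 neutrophil markers was called in limma (3 at an unadjusted p under 0.05), with a mean level of 5.41 to 5.65 in control and 5.76 to 5.88 in relapsed tumours, and Ly6g, Cxcr2, Ngp, Retnlg and Mmp8 were below 5.66 on every array. None of 15 natural killer and T cell markers was called (3 at an unadjusted p under 0.05), with a mean level of 5.68 to 6.14 and 5.97 to 6.53, and Cd3d and Klrb1c were below 5.66 on every array.

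**Figure D3:**
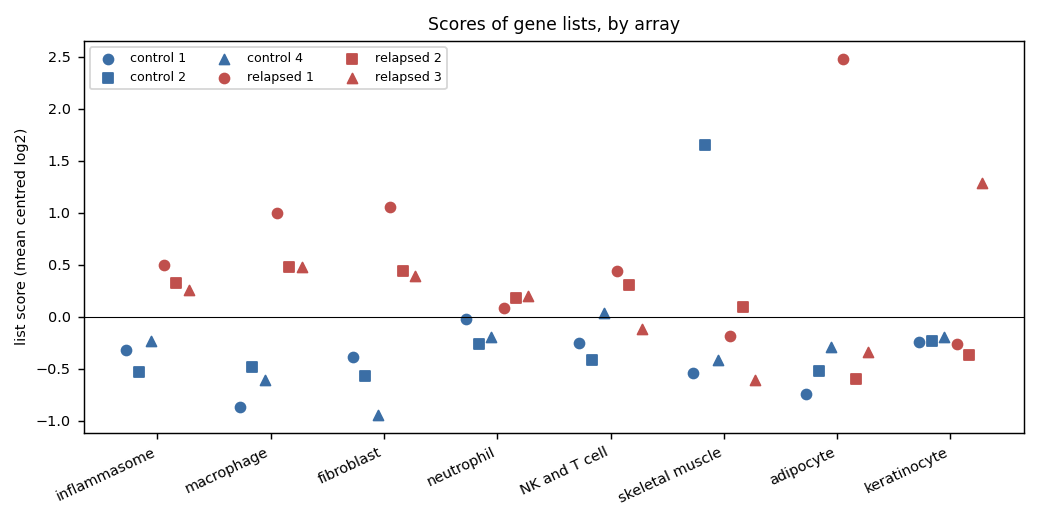
Score of 8 gene lists on each array (mean centred log2), with controls in blue and relapsed tumours in red. Inflammasome, macrophage and fibroblast scores separate the groups. The neutrophil score does so by less, at -0.26 to -0.02 in controls and 0.09 to 0.20 in relapsed tumours. The muscle, adipocyte and keratinocyte scores each single out 1 array, at 1.65, 2.48 and 1.28.

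The Bcl2a1 genes encode a guardian of the BCL2 family that is abundant in blood-derived cells. Of their 4 probe sets, 3 carry the symbols of all 4 copies, so these 3 cannot be given to 1 copy, and 1 carries Bcl2a1c alone. Probe sequences were not compared, so whether that probe set reads Bcl2a1c only was not tested. The start windows of Bcl2a1a and Bcl2a1b share an unbroken run of 174 bases, and those of other pairs 73 to 108. The first shared probe set stood at 8.04, 7.81 and 8.31 in control 1, 2 and 4 and at 10.43, 10.12 and 9.71 in relapsed 1, 2 and 3. The relapsed tumours were all higher, with relapsed 1 highest. Its difference was 2.03 ± 0.22 (4.09-fold, adjusted p = 0.0208 in limma over all 35556 probe sets). The other shared probe sets differed by 1.99 ± 0.23 and 1.90 ± 0.25. The Bcl2a1c probe set stood at 7.47, 7.06 and 7.48 in controls and 9.29, 9.0 and 8.64 in relapsed tumours, a difference of 1.64 ± 0.21 (3.12-fold). All 4 rose, against 2.45% of all probe sets. The calls rested on every array, since leaving out control 1, 2 or 4 or relapsed 2 or 3 left none called and leaving out relapsed 1 left 1, while the differences stayed between 1.48 and 2.22.

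Among the other 5 guardians no gene was called, and none had an unadjusted p under 0.05 in limma. These shares were 9.16% and 26.6% over all genes. Bcl2 stood at 9.21, 9.17 and 9.07 in control 1, 2 and 4 and at 9.15, 9.07 and 8.93 in relapsed 1, 2 and 3. The groups overlapped, and the difference was -0.10 with a 95% interval of -0.30 to 0.10. Bcl2l1, which encodes BCL-XL, stood at 9.09, 8.68 and 8.95 in controls and 8.36, 8.95 and 8.96 in relapsed tumours. Relapsed 1 was the lowest array and the others overlapped, for a difference of -0.15 (-0.66 to 0.36) that was 0.047 without relapsed 1.

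Mcl1, a short-lived guardian, stood at 11.37, 10.87 and 11.45 in controls and 11.47, 11.62 and 11.49 in relapsed tumours. All relapsed arrays were above the controls, by a narrow margin except over control 2. The difference was 0.29 ± 0.17 (-0.12 to 0.71), and 0.11 without control 2. Bcl2l2, which encodes BCL-W, differed by -0.079 ± 0.089. Bcl2l10 was below 5.66 in both groups.

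Bak1 encodes the pore former BAK and spread widely in both groups, at 9.93, 10.74 and 10.03 in controls and 10.53, 9.86 and 9.78 in relapsed tumours. Control 2 and relapsed 1 were the high arrays. The difference was -0.18 ± 0.30 (-0.92 to 0.57), and 0.076 without control 2. Bok, a BAK-like effector, differed by 0.039 ± 0.19. Bax was not analysed here.

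None of the 8 BH3-only genes was called in limma, and 1, Bcl2l11, had an unadjusted p under 0.05. Of all genes 9.16% were called and 26.6% had such a p. Bcl2l11 encodes BIM, whose transcription is held down by ERK signalling in many cells. It stood at 8.62, 8.56 and 8.42 in controls and 8.69, 8.82 and 9.02 in relapsed tumours. The relapsed tumours were all higher by a small step, and the difference was 0.31 ± 0.11 (0.05 to 0.58), with an adjusted p of 0.135. Pmaip1 (NOXA) and Bid differed by 0.31 ± 0.20 and 0.31 ± 0.16, and Bmf by 0.24 ± 0.11. Bbc3 (PUMA), Bad, Bik and Hrk differed by -0.016, -0.023, 0.11 and -0.08. The 17 members of the BCL2 family other than Bcl2l13 had differences of -0.19 to 0.31, and each 95% interval lay within 1 log2 unit of 0.

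Bcl2l13 stood at 10.15, 10.13 and 10.24 in control 1, 2 and 4 and at 9.30, 9.35 and 9.50 in relapsed 1, 2 and 3. Every relapsed tumour was lower and the arrays within a group were close. It fell by 0.79 ± 0.07 (1.73-fold, adjusted p = 0.0107 in limma), and stayed called with any 1 array left out (adjusted p of 0.0294 to 0.0473). Of the remaining BCL2 relatives, Bcl2l12 differed by -0.19 ± 0.12, and Bcl2l14 was below 5.66 in both groups.

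**Figure D4:**
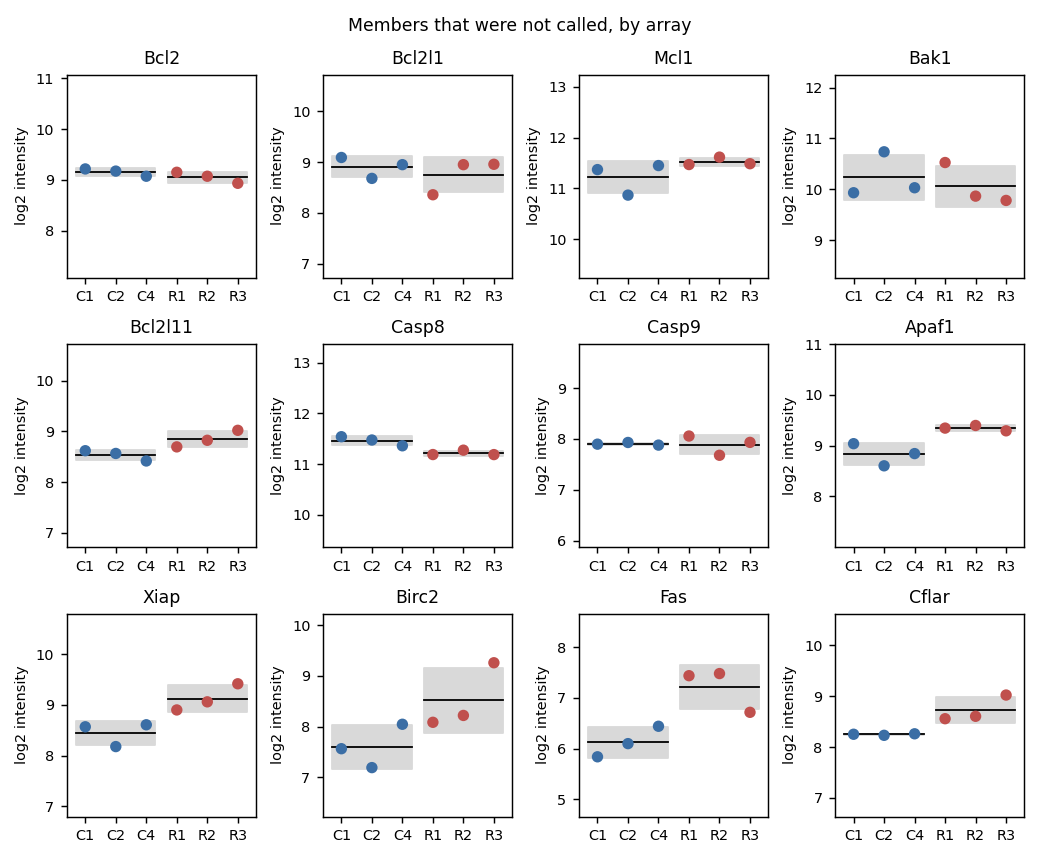
Log2 intensity of 12 members that were not called, on each control (C1, C2, C4) and relapsed (R1 to R3) array, drawn as for the called members. Bcl2, Bcl2l1, Bak1 and Casp9 overlap between groups. Mcl1, Bcl2l11, Apaf1, Xiap, Birc2, Fas and Cflar are higher in every relapsed array, with differences of 0.29 to 1.08. Casp8 is lower in every relapsed array, with a difference of -0.24. Of all genes, 30.8% have groups that do not overlap.

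None of the measured initiator and effector caspases of apoptosis was called, where 9.16% of all genes were. Casp6 and Casp8 had an unadjusted p under 0.05 in limma, as did 26.6% of all genes. Casp8, the initiator below death receptors, stood at 11.54, 11.47 and 11.36 in controls and 11.19, 11.27 and 11.19 in relapsed tumours. It was slightly lower in all relapsed arrays, by 0.24 ± 0.07 (1.18-fold, adjusted p = 0.0912 in limma). Casp9, the initiator of the apoptosome, stood at 7.90, 7.93 and 7.88 in controls and 8.06, 7.68 and 7.93 in relapsed tumours. Relapsed 1 and 2 lay on either side of the controls, and the difference was -0.013 (-0.28 to 0.25), with its sign turned without control 2 (0.0015) or relapsed 2 (0.093). Casp2 differed by 0.04 ± 0.06. Casp6, an effector caspase, differed by 0.53 ± 0.21 with overlapping groups.

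Apaf1, the scaffold of the apoptosome, was at 9.04, 8.60 and 8.84 in controls and 9.35, 9.40 and 9.29 in relapsed tumours. The groups did not overlap, and the difference of 0.52 ± 0.12 narrowly missed the threshold (adjusted p = 0.0577 in limma). With the dimmer 50% of genes left out it passed, at 0.0411.

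The 3 IAP genes among the members, Birc3, Xiap and Birc2, had higher means in relapsed tumours, and 1 of 3 was called. Birc3 stood at 7.82, 7.22 and 7.97 in control 1, 2 and 4 and at 8.74, 8.58 and 8.95 in relapsed 1, 2 and 3. The groups did not overlap, with control 2 lowest and relapsed 3 highest. Birc3 rose by 1.09 ± 0.22 (adjusted p = 0.0433 in limma). The call was lost with any 1 of the 6 arrays left out, with an adjusted p of 0.0522 to 0.132 and a difference of 0.86 to 1.24.

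Xiap, the IAP that inhibits caspases directly, stood at 8.57, 8.18 and 8.61 in controls and 8.90, 9.06 and 9.41 in relapsed tumours. All relapsed arrays were higher, by 0.67 ± 0.18 (adjusted p = 0.0808 in limma), and it passed with the dimmer 50% of genes left out (0.0455) and with array weights (0.0471). Birc2, which encodes cIAP1, stood at 7.56, 7.19 and 8.05 in controls and 8.08, 8.22 and 9.26 in relapsed tumours. The groups met closely and relapsed 3 stood out, for a difference of 0.92 ± 0.38 (adjusted p = 0.201) that was 0.55 without relapsed 3. The other Birc2 probe set gave 0.20 ± 0.24. Diablo, the mitochondrial antagonist of IAPs, differed by -0.32 ± 0.12 (adjusted p = 0.155).

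In the death receptor pathway, Fas was at 5.84, 6.10 and 6.44 in controls and 7.44, 7.48 and 6.71 in relapsed tumours. Relapsed 3 was lower than the others of its group but still above the controls. The difference was 1.08 ± 0.26 (2.12-fold) and missed the threshold (adjusted p = 0.0640 in limma). Cflar, which encodes the caspase-8 inhibitor c-FLIP, was at 8.25, 8.23 and 8.26 in controls and 8.56, 8.61 and 9.02 in relapsed tumours, a difference of 0.48 ± 0.13 (adjusted p = 0.0880). All relapsed arrays were higher, and the other Cflar probe sets differed by 0.43 and 1.13 with no call. The adaptors Fadd and Tradd differed by -0.39 ± 0.16 and -0.0025 ± 0.23. Ripk3, the kinase of necroptosis, differed by 0.28 ± 0.13, and Fasl was below 5.66 in both groups.

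Of all members, 16 had groups that did not overlap, 12 higher and 4 lower in relapsed tumours, against 13% and 17.8% of all genes. Among the 31 that were not called, 27 had a 95% interval within 1 log2 unit of 0, and the exceptions were Casp6, Birc2, Xiap and Fas. The median difference of the members was 0.061, against -0.019 over all genes.

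Casp1, Casp4, Casp12, Birc2 and Birc3 share a position that the choice of members did not use. In the RefSeq order of GRCm38.p6 the inflammatory caspase genes stand side by side, Birc2 and Birc3 follow on the same chromosome, and 15 other measured genes, most of them metalloproteinases, lie between. None of these 15 was called in limma, 5 had an unadjusted p under 0.05 (26.6% of all genes did), and 7 were below 5.66 in both groups. Of the 15, 10 had a higher and 5 a lower mean in relapsed tumours, with a median difference of 0.39. For 6 of the 15 the groups did not overlap, all higher in relapsed tumours, a pattern that 13% of all genes had. Mmp12, macrophage elastase, differed by 2.13 ± 0.64 and Pdgfd by 1.82 ± 0.66. Tmem123, next to Birc2, differed by 0.69 ± 0.17 (adjusted p = 0.0670 in limma). On the flanks, Gria4 before Casp1 differed by 1.24 ± 0.35 and Yap1 after Birc3 by 0.23 ± 0.17. Among these genes and 5 on each side, relapsed 3 was the highest array for Aasdhppt, Casp1, Casp12, Pdgfd, Dync2h1, Dcun1d5 and Mmp13. The same held for Mmp1a, Mmp10, Tmem123, Birc2, Birc3, Yap1, Cfap300 and Cep126, of which Mmp1a and Cep126 were below 5.66 in both groups. It did not hold for Casp4, Mmp12, Gria4 or the other measured genes of this stretch. Cfap300, beyond Yap1, stood at 7.57, 7.06 and 8.74 in relapsed 1, 2 and 3.

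**Figure D5:**
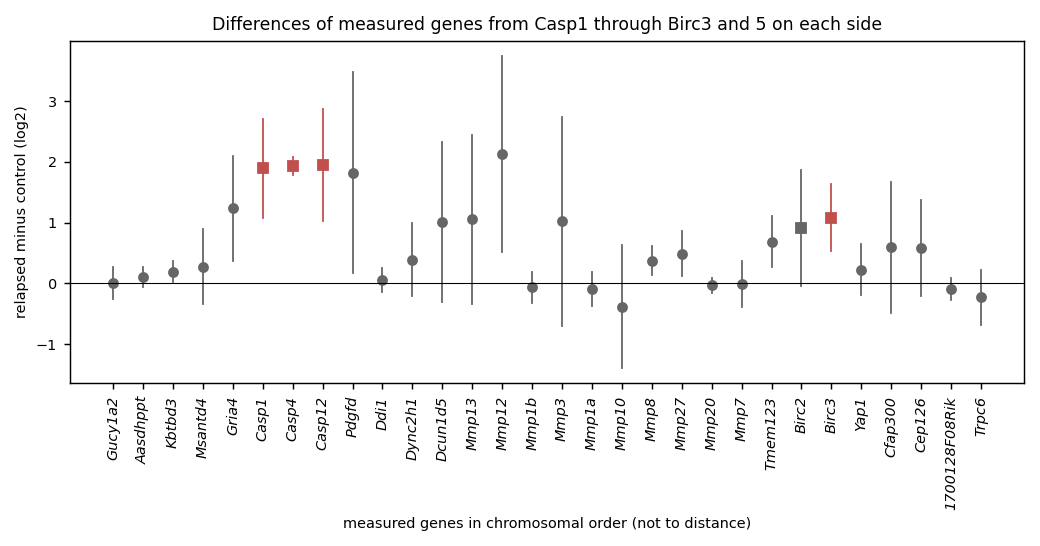
Difference between relapsed and control gliomas (log2, with 95% intervals) for measured genes in chromosomal order from Casp1 through Birc3 and 5 on each side. Squares are members and red marks called genes. The called genes are Casp1, Casp4, Casp12 and Birc3, and Yap1 next to Birc3 lies at 0.23.

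Other genes of the pathways were taken from lists that were chosen with earlier results of these data known. Of 35 further genes of mitochondrial apoptosis and its regulators, 2 rose and 1 fell, against 3.69% and 5.47% of all genes, with a median difference of -0.053. With 1 array left out, 0 to 2 rose and none fell. Those that rose were Naip2 and Naip5, IAP relatives already described, and Pidd1, the scaffold that activates caspase-2, fell by 0.46 ± 0.10. Birc5, the mitotic IAP survivin, and Cycs, cytochrome c, differed by -0.063 ± 0.084 and 0.0019 ± 0.19.

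Of 26 death receptors and adaptors 2 rose and 1 fell, against 3.69% and 5.47% of all genes, with a median difference of -0.097. With 1 array left out 0 to 1 rose and 0 to 1 fell. Traf1, an adaptor that binds cIAPs, stood at 5.91, 5.99 and 6.24 in controls and 7.47, 6.85 and 7.35 in relapsed tumours and rose by 1.18 ± 0.19. All relapsed arrays were higher. Tnfrsf1b, the second receptor of tumour necrosis factor, rose by 0.61 ± 0.10. Tnfrsf21, the death receptor DR6, stood at 10.53, 10.94 and 10.62 in controls and 9.80, 9.58 and 9.42 in relapsed tumours and fell by 1.09 ± 0.15. Of 18 genes of the NF-kappaB pathway 1 rose and 1 fell, against the same shares of all genes, with a median difference of 0.066. Traf1 rose, and Nfkbib, an inhibitor of the factor, fell by 0.64 ± 0.08. Each was called in some but not all fits with 1 array left out.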

How the data were processed

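Per the submitters' processing notes, the authors used the affy package (version not given). The deposited table holds log2 intensities per probe set. Array medians were close, at 6.58 to 6.62 in control and 6.67 to 6.68 in relapsed tumours. A normalization between arrays by the authors is inferred from such values. How background was corrected and probes were summarized is not given in the sources used here. The log2 scale was read from the values. Normalization can set overall distributions alike, so the true size of a shift shared by most genes could not be seen. Gene symbols came from the platform annotation, where 21789 of 35556 had 1 symbol, 1621 several and 12146 none. The single-symbol probe set with the highest mean stood for a gene, with no filter on low values. Members are called dim where both group means lay below 5.66, the median of unlisted probe sets.

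All 19938 genes were fitted with limma 3.58.1 in R 4.3.3 (lmFit, eBayes, relapsed against control, 4 residual and 1.53 prior degrees of freedom, two-sided, Benjamini-Hochberg). Precision is limited by the number of arrays. The procedure was tested on simulated data. Members and lists were chosen with earlier results of these data known. Values per array are given for called members, for others that did not overlap and differed by at least 0.5, and for Bcl2, Bcl2l1, Mcl1, Bak1, Bcl2l11, Casp8, Casp9 and Xiap. Other genes with values per array were named after their values were seen. For lists, up to 4 called genes with the largest difference are named. Genes with a like pattern over the 6 arrays were not sought, since the groups form separate clusters. Alternatives were each array left out, a filter on dim genes, quantile normalization, median centring, the mean of probe sets, variance trend, robust prior, array weights and the replicate number as a block.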

Additional observations from a re-analysis of the deposited data

How the results depend on the processing

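With 1 array left out, 264 to 975 genes were called instead of 1826, 1 to 3 members rose instead of 4 (Casp4 in each fit), Bcl2l13 fell in each fit, and 0 to 1 of 4 Bcl2a1 probe sets rose. Over those fits the differences of Bak1, Bcl2l1 and Casp9, none called, ran from -0.41 to 0.076, -0.27 to 0.047 and -0.097 to 0.093 and so changed sign. The labels number the tumours, and numbers 1 and 2 occur in both groups. With the replicate number as a block, limma called 0 genes, 0 members in either direction and 0 Bcl2a1 probe sets. An unadjusted p under 0.05 in limma was reached by 2199 genes, 7 members and 4 Bcl2a1 probe sets. That fit rests on these 2 pairs and leaves fewer residual degrees of freedom than the main fit. Its lack of calls thus does not show that differences were lost. Under the block, Casp1, Casp4, Casp12, Birc3 and Bcl2l13 differed by 2.11, 1.90, 2.09, 1.14 and -0.81. Deviations from group means correlated at -0.34 and -0.25 within the pairs, which gives no sign of pairing, though 2 pairs cannot settle it, and the labels do not say what the numbers mark. Under quantile normalization, median centring, the mean of probe sets, variance trend and robust prior the same 5 members were called. Array weights added Xiap, and leaving out the dimmer 50% of genes, which kept 26 members and dropped Fas, added Xiap and Apaf1. Signal near background limits Bcl2l10, Bcl2l14 and Fasl. Leaving out each array for the other gene lists was added after the data were seen.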

Other observations

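Control 2 was the lowest control for 19 of 36 members, or 52.8%, against 38.7% of all genes. Among the 12 members higher in all relapsed tumours it was lowest for 8, or 66.7%, against 55.2% of all genes with that pattern, and relapsed 3 was highest for 7, or 58.3%, against 33.9%.

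Some death receptor genes that were not called had uneven values, and they are named after their values were seen. Tnfrsf10b, the mouse TRAIL receptor, stood at 8.83, 8.40 and 8.92 in control 1, 2 and 4 and at 6.24, 8.21 and 8.14 in relapsed 1, 2 and 3. Relapsed 1 lay far below every other array, and the difference was -1.19 ± 0.57 with an adjusted p of 0.258 in limma. Cyld, a deubiquitinase that trims chains on RIPK1, stood at 8.64, 7.59 and 8.64 in controls and 9.29, 9.68 and 9.34 in relapsed tumours. Control 2 was the low array, and the difference was 1.15 ± 0.32 with an adjusted p of 0.0878.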
